A study of Mus musculus with 3 samples.

Results

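Bone marrow stromal cells were examined for 9 genes of the complement system that stroma can make: the proteases C1ra, C1s1, C2 and Cfb, the components C3, C4b and C7, and the inhibitors Serping1 and Clu. A gene was taken from the probe sets annotated to its symbol alone, and 8 of the 9 were measured, among 19938 genes in all; each had a single such probe set. C3 is not analysed here. The study set 2 sorted populations from the marrow of tibia, femur and pelvis side by side at baseline, on 3 single-colour Affymetrix arrays. CXCL12-abundant reticular (CAR) cells, the stromal cells with abundant chemokine CXCL12, came from 2 CXCL12-GFP knock-in mice, whose zygosity is not given in the labels, and fill 2 arrays. PDGFRa+ Sca+ CD45- lineage- cells, a gate for early mesenchymal progenitors abbreviated PaS, were combined from 3 Prx1-Cre Rosa26Ai9/+ Cxcl12gfp/+ mice and fill 1 array. Both groups therefore carried GFP at Cxcl12; the Prx1 element drives Cre in limb bud mesenchyme, and Ai9 is a Cre-dependent red fluorescent reporter. Genotype, pooling and cell type differ together and cannot be told apart. The labels give the CAR arrays as replicates of 2 mice, the spread of every test comes from them, and the PaS side has no replicate.

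Complement is a cascade of serum proteins that marks surfaces for uptake and can perforate membranes. In the classical pathway C1q binds a target, the protease C1r activates C1s, and C1s cleaves C4 and C2 to form a C3 convertase; in the alternative pathway factor B takes the place of C2. Cleaved C3 leads to C5 and to a pore of C5b, C6, C7, C8 and C9. The liver is the main source of most of these proteins, while fibroblasts and macrophages also make some of them, and interferon gamma and interleukin 6 family cytokines are known inducers.

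The sequences before the annotated starts are shown first for the C1r genes, because C1ra has a near-identical copy, C1rb, and a probe set shared by both behaved differently from that of C1ra alone. RefSeq promoter sequences (GRCm38.p6) were at hand for 3 of the 8 measured genes, C1ra, C1s1 and C7, and each window printed covers the 250 bases before a start. In the next pair, capitals mark a stretch of 99 bases that aligned without gaps between the copies, with 93 identical bases (93.9%).
C1ra (chr6:124512371-124512620, plus strand): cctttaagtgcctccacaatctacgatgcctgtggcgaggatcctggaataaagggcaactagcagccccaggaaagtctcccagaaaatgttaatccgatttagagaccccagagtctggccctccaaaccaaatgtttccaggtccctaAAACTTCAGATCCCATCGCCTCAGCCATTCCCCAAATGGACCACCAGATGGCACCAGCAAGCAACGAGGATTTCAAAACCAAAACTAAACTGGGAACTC
C1rb (chr6:124570180-124570429, plus strand): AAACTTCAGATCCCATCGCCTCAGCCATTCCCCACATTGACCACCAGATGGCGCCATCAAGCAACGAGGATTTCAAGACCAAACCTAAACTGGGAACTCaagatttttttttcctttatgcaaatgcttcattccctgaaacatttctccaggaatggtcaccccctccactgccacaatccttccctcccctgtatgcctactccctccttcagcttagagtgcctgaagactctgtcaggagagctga
In the printed windows the stretch reaches the last base before the annotated start of C1ra. It lies from 250 to 152 bases before that of C1rb, so the starts of the copies are annotated at different places of a common sequence. Both limits of the stretch are edges of a window, and how far the likeness runs beyond them was not tested.

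The windows of C1s1, whose probe set stood far higher in CAR cells, and of C7, the member that was lower, follow for comparison. Capitals mark matches to motifs of factors downstream of the known inducers.
C1s1 (chr6:124542360-124542609, minus strand): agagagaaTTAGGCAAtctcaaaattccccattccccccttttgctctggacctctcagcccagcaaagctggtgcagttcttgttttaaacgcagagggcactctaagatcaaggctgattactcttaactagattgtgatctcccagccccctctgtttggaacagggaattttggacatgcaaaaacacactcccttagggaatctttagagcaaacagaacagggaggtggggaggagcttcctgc
C7 (chr15:5063774-5064023, minus strand): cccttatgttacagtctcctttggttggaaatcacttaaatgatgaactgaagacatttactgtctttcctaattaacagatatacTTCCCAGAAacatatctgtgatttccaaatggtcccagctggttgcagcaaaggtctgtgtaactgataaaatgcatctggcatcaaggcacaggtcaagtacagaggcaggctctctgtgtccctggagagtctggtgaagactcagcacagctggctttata
Windows of 300 bases, which add the 50 bases after the start, were searched on both strands for the letters TTCNNNGAA (STAT), GAAANNGAA (interferon regulatory factors), TTGCNNAA (C/EBP) and GGAANTTCC (NF-kappaB). These occur in 8.30%, 8.56%, 10.8% and 0.928% of 32851 promoter windows. In C7 the capitals are a STAT match, TTCCCAGAA, and in C1s1, shown for the more upstream of its annotated starts, a C/EBP match on the minus strand. The window of the other annotated start of C1s1 held no match. C7 also holds a match for interferon regulatory factors after its start. C1ra holds a STAT match, TTCCCTGAA, and a C/EBP match after its start, and C1rb holds the same letters in the lower-case part of its window. No matches overlapped, none of the 4 windows held the NF-kappaB letters, and a match describes the letters only.

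On the arrays, Cxcl12 had log2 intensities of 10.94 and 11.11 in CAR cells, against 7.76 on the array labelled PaS. Pdgfra, the receptor of the PaS gate, had 7.52 and 7.97 in CAR cells and 4.33 on the array labelled PaS, while Ptprc, which encodes CD45, had 5.11 and 5.01 against 8.27. Pdgfra and Ptprc thus go against the PaS label. Of 10 markers listed for PaS cells, Ly6a, the gene of the Sca gate, and Ly6c1 were not measured. Of the 8 measured, 7 were lower on both CAR arrays, which goes with the label, while 46.8% of all genes were. Pdgfra was the exception. Among the 7, Pi16 and Clec3b did not pass the test described next. They had 4.02 and 4.09 on the array labelled PaS, near its median of 3.77. Differences below are between CAR cells and the array so labelled. The fit was limma's, over all genes, with Benjamini-Hochberg adjustment and a threshold of 0.05. It placed 1706 genes higher in CAR cells (8.56%) and 1281 lower (6.42%).

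Most of the complement genes were higher in CAR cells. Of 8 measured, 5 were called higher (C1s1, C4b, Cfb, Serping1 and Clu), against a background of 8.56% of all genes, and 1 was called lower (C7), against 6.42%. C2 and C1ra did not pass. The members and the lists below were chosen with earlier results of these data known, so the shares of all genes are no independent yardstick. In 1 alternative, with 16 added to each intensity before log2, limma called no gene at all, and every call named here was lost. Both CAR arrays lay above the array labelled PaS for 7 of the 8, as for 37.4% of all genes, and below it for 1, as for 46.8%. They were at least 2-fold above it for 6 of the 8, C2 included, as for 10.9% of all genes, and at least 2-fold below it for C7, as for 8.92%. The median difference, CAR minus PaS, was 2.54 log2 units over the 8 genes and −0.10 over all genes. In bulk samples, fewer cells of a type and less RNA per cell cannot be told apart.

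**Figure D1:**
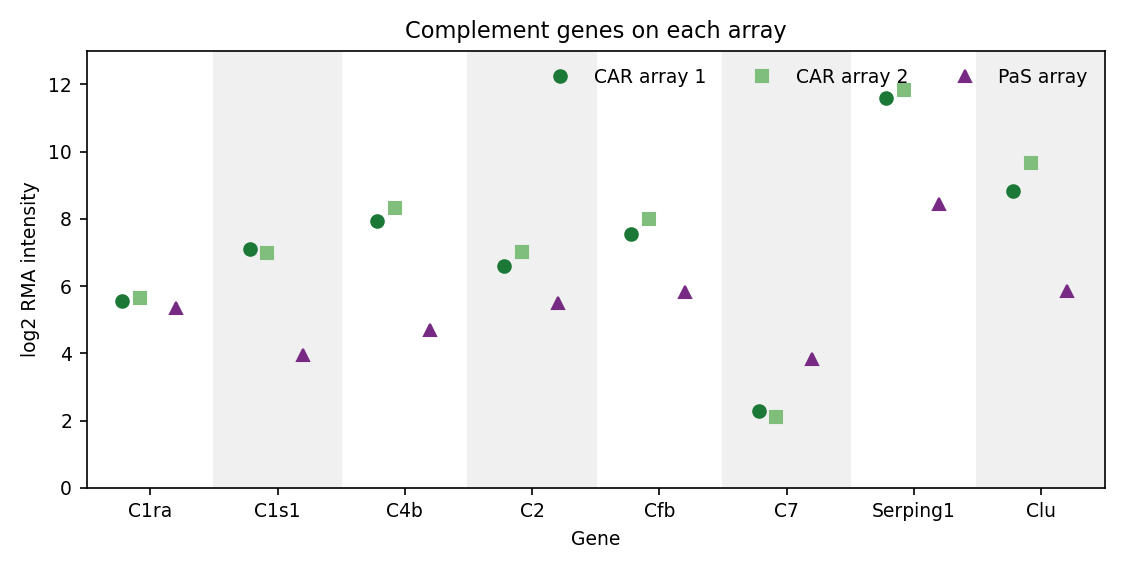
log2 RMA intensity (vertical axis) of the 8 complement genes, ordered by role, with circles for CAR array 1, squares for CAR array 2 and triangles for the array labelled PaS. The CAR points lie above the triangle for all but C7 and are farthest apart for Clu; for C1ra the gap is small.

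The proteases that start the classical pathway gave unlike results. C1s1, the protease that cleaves C4 and C2, had 7.10 and 6.99 in CAR cells and 3.94 on the array labelled PaS. Both CAR arrays stood far above it, by 3.10 ± 0.28 log2 units (SE), an 8.59-fold difference (limma adjusted p = 0.0114). C1ra, the protease that activates C1s, had 5.56 and 5.66 in CAR cells and 5.35 on the array labelled PaS. The arrays nearly coincided: the difference was 0.26 log2 units with a 95% interval from −0.46 to 0.97 (limma adjusted p = 0.560), and it was −0.27 after quantile normalization. This interval includes a fold of 1 and does not reach the lower bound for C1s1, 2.39; the difference between the genes was not tested.

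A further probe set is annotated to C1ra and C1rb together, so its signal belongs to either gene or both, and it lies outside the fit; it was looked at after the values were seen. It had 6.71 and 7.45 in CAR cells and 4.13 on the array labelled PaS, a difference of 2.95 log2 units, or 7.74-fold, with no test. Its CAR values lay above the other array as those of C1s1 did, and not as those of the probe set of C1ra alone. The flat value of C1ra therefore holds for 1 probe set, and how far each probe set measures C1ra was not tested. C1s2, the near-identical copy of C1s1, had 4.33 and 5.36 in CAR cells and 3.47 on the array labelled PaS and did not pass (adjusted p = 0.112). C1rl, a C1r-like protease whose gene is next to C1ra, had 5.10 and 5.24 against 5.68 (adjusted p = 0.260). C1ra, C1s1, C1rb and C1s2 follow each other on chromosome 6 with no other protein-coding gene between them, and the probe sets of this row spanned differences from 0.26 to 3.10 log2 units.

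**Figure D2:**
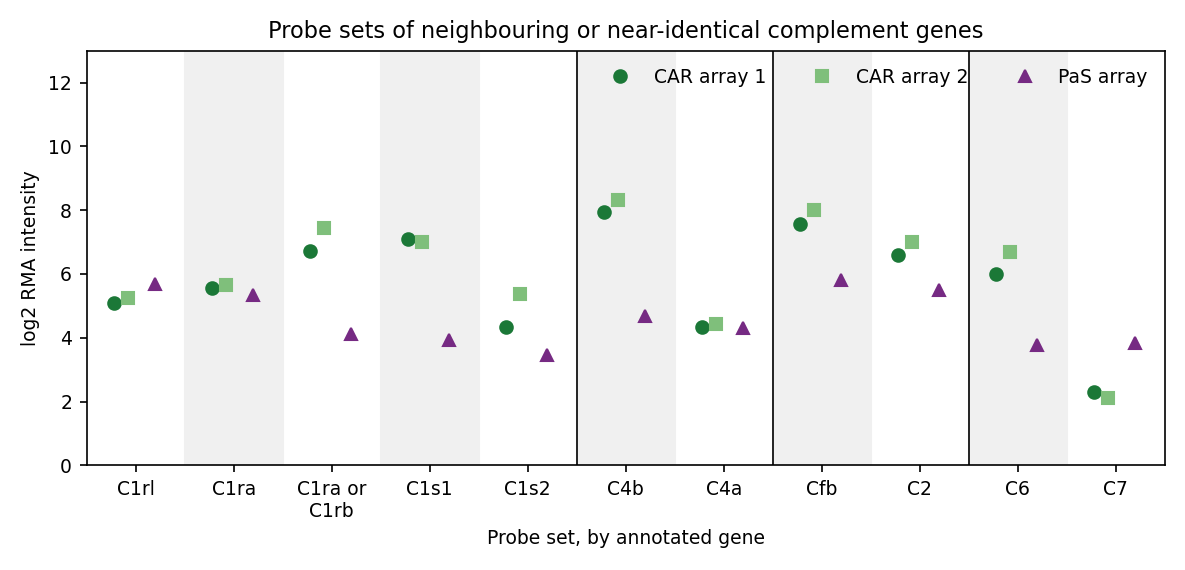
log2 RMA intensity (vertical axis) of probe sets of neighbouring or near-identical complement genes, in 4 blocks divided by lines, with circles and squares for the CAR arrays and triangles for the array labelled PaS. C1s1, the set shared by C1ra and C1rb, C4b and C6 show wide gaps, while C1ra and C4a show almost none and C7 is turned round.

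The measured genes C4b, Cfb and C2, which encode parts of the C3 convertases, were higher in CAR cells or leaned that way. C4b, which encodes the C4 component, had 7.94 and 8.32 in CAR cells and 4.70 on the array labelled PaS. The CAR arrays agreed within 0.38 log2 units and stood 3.44 ± 0.31 (SE) above it, or 10.8-fold (limma adjusted p = 0.0114). C4a, the sex-limited copy of C4b, had 4.34 and 4.44 in CAR cells and 4.31 on the array labelled PaS, a difference of 0.08 (adjusted p = 0.861), which was −0.13 after quantile normalization. The copies are near-identical, and cross-hybridisation between their probe sets was not tested.

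Cfb, the protease of the alternative pathway convertase, had 7.56 and 8.0 in CAR cells and 5.81 on the array labelled PaS. It was 3.91-fold higher in CAR cells (1.97 ± 0.33 log2 units, SE; limma adjusted p = 0.0268). C2, the classical pathway counterpart of Cfb, had 6.59 and 7.01 in CAR cells and 5.51 on the array labelled PaS. Both CAR arrays were higher, by 1.29 ± 0.32 log2 units (SE) with a 95% interval from 0.47 to 2.10, but C2 missed the threshold (limma adjusted p = 0.0555). It passed when arrays were centred on their medians (adjusted p = 0.0161), with dim genes filtered out at the median level (0.0383) and with a robust prior (0.0387), and its difference was 0.74 after quantile normalization (0.0811). Cfb and C2 are direct neighbours on chromosome 17, in the region of the histocompatibility genes, with C4b 5 protein-coding genes away from Cfb. All 3 leaned toward CAR cells, C4b most.

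C7, which joins the membrane attack complex after C6, ran the other way. It had 2.29 and 2.12 in CAR cells and 3.83 on the array labelled PaS, a 3.08-fold lower level in CAR cells (−1.62 ± 0.29 log2 units, SE; limma adjusted p = 0.0300). The groups did not overlap, but every value was low: the CAR values lay under the lower quartiles of all genes, 2.86 and 2.73, and the other value near the median of its array, 3.77. No detection calls were used, and the 5th percentile of all genes was 1.87 and 1.69 on the CAR arrays and 2.40 on the array labelled PaS, so the low end shifts the same way. With 16 added to each intensity, which damps dim values, the difference shrank to −0.55 (adjusted p = 0.0975).

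C6, the partner of C7 in the pore, had 6.01 and 6.70 in CAR cells and 3.76 on the array labelled PaS. It was 6.01-fold higher in CAR cells (2.59 ± 0.38 log2 units, SE; limma adjusted p = 0.0226). Its value on the array labelled PaS lay at about the median of that array, as did that of C1s1, 3.94, and no detection calls were used, so if these are background the folds are lower bounds. On chromosome 15 a single protein-coding gene separates C6 from C7, and their differences had opposite signs, each past the threshold. The other pore components did not pass: Hc, which encodes C5, had 2.29 and 2.14 against 2.60, a difference of −0.38 that was 0.21 after quantile normalization, and Hc, C8a, C8b, C8g and C9 had adjusted p-values of 0.388 or more.

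The secreted inhibitors Serping1 and Clu were both higher in CAR cells. Serping1, the C1 inhibitor, which blocks C1r, C1s and the MASP proteases, had 11.59 and 11.83 in CAR cells and 8.43 on the array labelled PaS. It was 9.68-fold higher (3.28 ± 0.29 log2 units, SE; limma adjusted p = 0.0114). In intensity units these were 3086 and 3634 in CAR cells against 346, far above the 95th percentiles of all genes (6.69 and 6.93 log2 units) on the CAR arrays. On the array labelled PaS it also exceeded the 95th percentile, 6.16, so the signal was clear on all 3 arrays. Its difference stood beside 3.27 for Cxcl12, the gene that defines the CAR sort.

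Clu, clusterin, a chaperone that binds the forming pore, had 8.83 and 9.66 in CAR cells and 5.86 on the array labelled PaS. It was 10.4-fold higher in CAR cells (3.38 ± 0.42 log2 units, SE; limma adjusted p = 0.0169). The CAR arrays differed by 0.83 for Clu, the widest gap among the 8 genes and above the 90th percentile of that gap over all genes, 0.72; its median over all genes was 0.27. The separation from the array labelled PaS was still 2.97 with CAR array 1 and 3.79 with CAR array 2. Among the 8 genes, 6 were higher on CAR array 2 than on CAR array 1, with C1s1 and C7 the exceptions.

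**Figure D3:**
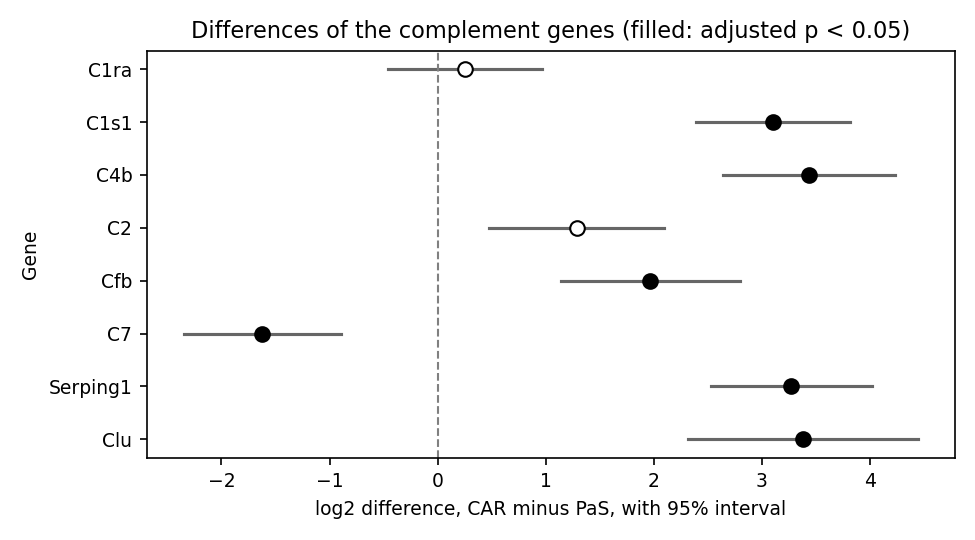
log2 difference, CAR minus PaS (horizontal axis), of the 8 complement genes with 95% intervals from limma; filled points passed the threshold and open points did not. C1s1, C4b, Serping1 and Clu lie between 3.10 and 3.44, Cfb and C2 between 1.29 and 1.97, C1ra near 0 and C7 at −1.62.

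Among the other complement genes few were called. Of 42 measured of 45 listed, 3 were higher (8.56% of all genes) and 6 lower (6.42%), with a median difference of −0.32 log2 units, against −0.10 over all genes. The higher ones were C6, Colec12 and Csmd1. Colec12, a membrane collectin that binds sugars, had 8.40 and 8.64 in CAR cells and 5.37 on the array labelled PaS (3.15 ± 0.29 log2 units, SE; limma adjusted p = 0.0116). Csmd1, a membrane protein of the family with CUB and sushi domains, had 6.13 and 6.56 against 3.64, which is under the median of that array (adjusted p = 0.0162). After quantile normalization the counts were 6 higher and 12 lower, with 14.2% of all genes higher and 12.7% lower.

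Of the C1q chains, which form the recognition subunit of the classical pathway, C1qc was lower in CAR cells. It had 4.20 and 4.05 in CAR cells and 6.95 on the array labelled PaS, 2.83 ± 0.28 log2 units lower (SE; limma adjusted p = 0.0126). C1qa had 3.53 and 3.86 against 4.87 (adjusted p = 0.0608) and C1qb 3.78 and 3.73 against 4.04 (0.508), so 1 of the 3 chains passed. C1q is made mainly by macrophages. Of 10 macrophage markers 5 were lower in CAR cells (6.42% of all genes) and Mertk was higher (8.56%). Adgre1, Csf1r, Cd68 and Fcgr1 did not pass. The summed intensity of the 10 was 629.8 and 611 in CAR cells against 3013. The brightest of them on the array labelled PaS were Lyz2 (10.91 log2 units) and Tyrobp (9.60). The part of macrophages in the C1q values was not tested.

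Further genes lower in CAR cells fell in several roles. Masp1, a protease of the lectin pathway, had 2.37 and 2.46 in CAR cells and 4.27 on the array labelled PaS (limma adjusted p = 0.0231). Cfp, properdin, which stabilises the alternative convertase and is made by myeloid cells, had 3.93 and 4.24 against 5.77 (adjusted p = 0.0307), and Itgam, a chain of complement receptor 3 on myeloid cells, had 4.98 and 4.14 against 6.88 (0.0320). These myeloid genes were lower in CAR cells, as were most leukocyte and neutrophil markers described below, and a link was not tested. Cd55, decay accelerating factor, had 3.62 and 4.01 against 5.17 (adjusted p = 0.0486), and Cd59b, an inhibitor of the pore, had 2.77 and 3.16 against 4.40 (0.0442). Of the other membrane regulators Csmd1 was higher, as given above. Masp1 and Cd59b were dim in CAR cells, under the medians of all genes (3.74 and 3.75). With 16 added to each intensity the differences shrank to −0.73 for Masp1, −0.64 for Cd59b, −0.79 for Cd55, −1.10 for Cfp and 1.78 for Csmd1.

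Cr1l, the mouse membrane inhibitor Crry, had 5.80 and 6.47 in CAR cells and 5.74 on the array labelled PaS (limma adjusted p = 0.495); its difference of 0.40 was −0.17 after quantile normalization. No receptor for an anaphylatoxin passed: C3ar1 had 2.37 and 2.26 against 3.22 (adjusted p = 0.0869), and C5ar1 had 4.60 and 4.90 against 5.55 (0.129). By role, 1 of 10 recognition genes was higher and 1 lower, 0 and 1 of 4 proteases, 1 and 1 of 8 components, 0 and 0 of 5 soluble regulators, 1 and 2 of 7 membrane regulators, and 0 and 1 of 8 receptors, where 8.56% of all genes were higher and 6.42% lower; such small counts single out no role. The 5 soluble regulators Cfi, C4bp, Vtn, Cpn1 and Cpn2 had adjusted p-values of 0.160 or more.

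**Figure D4:**
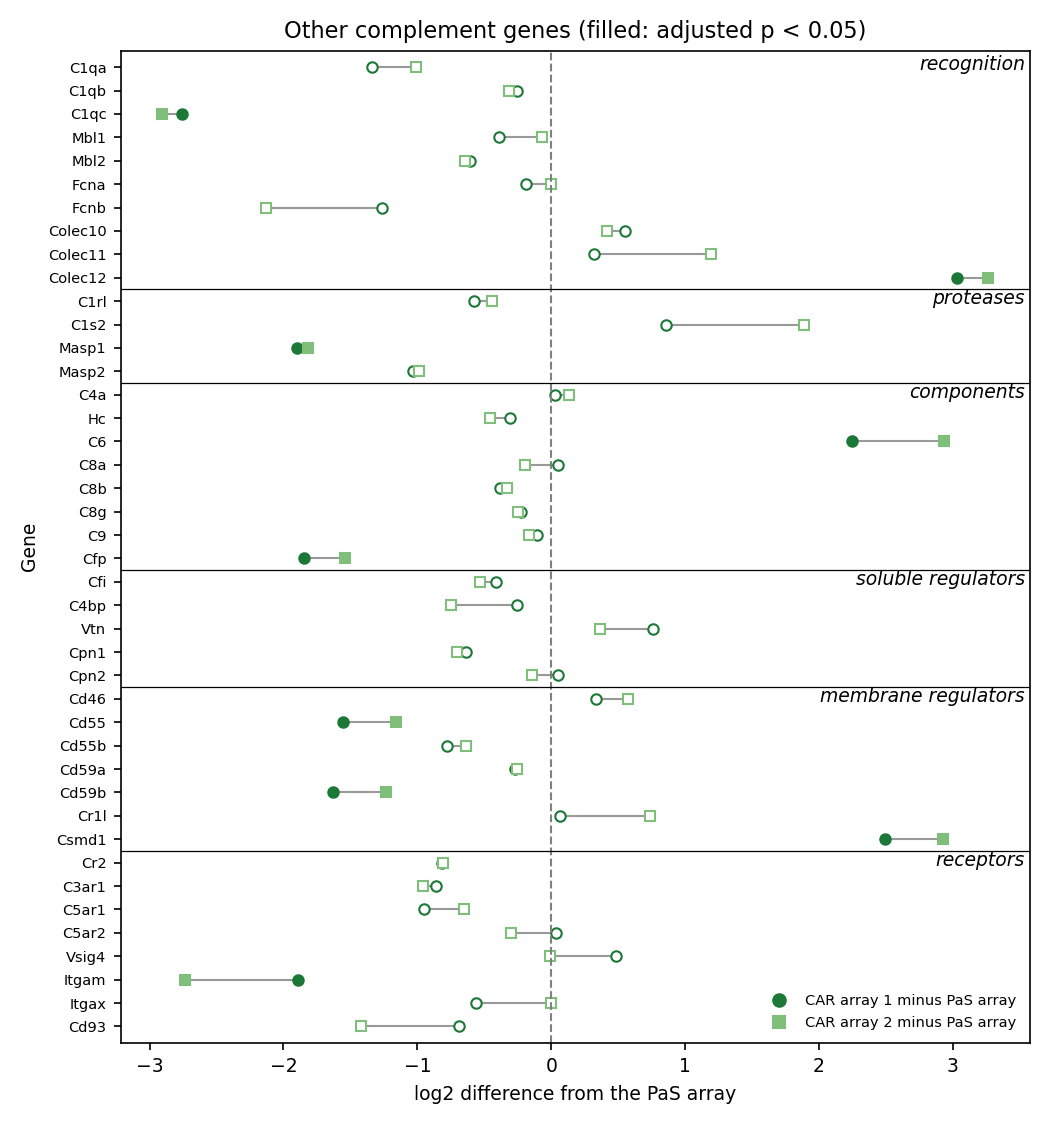
log2 difference from the array labelled PaS (horizontal axis) of 42 other complement genes in blocks by role, with circles for CAR array 1 and squares for CAR array 2; filled points passed the threshold. Colec12, C6 and Csmd1 stand alone on the right, and C1qc and Itgam reach farthest to the left among the called genes.

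The listed receptors and factors of the routes known to induce complement genes were mostly higher in CAR cells. This list was chosen with earlier results of these data known, so its counts are no independent comparison with all genes. Of 17 measured of 20 listed, 10 were higher (8.56% of all genes) and 0 lower (6.42%) in limma's test, and at an unadjusted p under 0.05 the counts were 13 (17.1% of all genes) and 0 (18%); the median difference was 1.45 log2 units. Lifr, the leukemia inhibitory factor receptor, had 8.99 and 9.02 in CAR cells and 4.58 on the array labelled PaS (4.42 ± 0.28 log2 units, SE; limma adjusted p = 0.0081). Osmr, the oncostatin M receptor, was higher by 2.74 and Il6st, the gp130 chain that both share, by 1.61, and Socs3, a feedback inhibitor induced through them, by 2.31. Stat3, the transcription factor of this route, had a difference of 1.12 and did not pass (adjusted p = 0.0574; 0.0190 with arrays centred on their medians), nor did the kinase Jak2 at 0.49 (0.397).

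In the interferon gamma route, Ifngr2 was higher by 1.55 log2 units, the kinase Jak1 by 1.49 and the transcription factor Irf1 by 2.13, while Ifngr1 missed the threshold at 1.16 (limma adjusted p = 0.0549). Tnfrsf1a, a receptor for tumour necrosis factor, was higher by 2.60, the transcription factor Cebpa by 1.44 and Nr3c1, the glucocorticoid receptor, by 1.45 (0.88 with 16 added to each intensity). The 10 adjusted p-values were at most 0.0413. Cebpd missed the threshold at 1.16 (adjusted p = 0.0661; 0.0223 with arrays centred), and Cebpb, Rela and Il6ra had differences of 0.06, 0.07 and −0.22 and did not pass; those of Cebpb and Rela were −0.46 and −0.44 after quantile normalization. No cytokine or protein was measured by these probe sets.

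**Figure D5:**
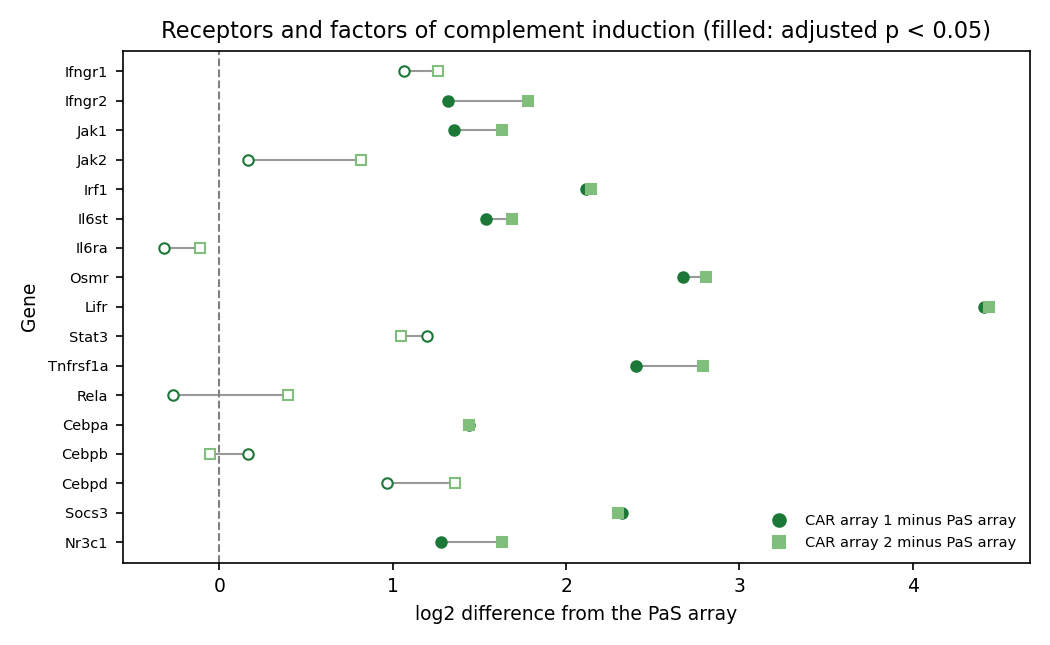
log2 difference from the array labelled PaS (horizontal axis) of 17 genes of the routes that induce complement genes, with circles for CAR array 1 and squares for CAR array 2; filled points passed the threshold. Lifr lies farthest to the right, and both CAR arrays lie below 0 for Il6ra alone.

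Markers of several other cell types moved with the comparison. Over all genes, 8.56% were called higher in CAR cells and 6.42% lower. Of 10 leukocyte markers 9 were lower in CAR cells, with summed intensities of 615 and 864 in CAR cells against 3345 on the array labelled PaS, and of 10 neutrophil markers 8 were lower, at 3053 and 2761 against 16396. Of 9 measured B cell markers 6 were lower (158 and 123 against 649), of 10 endothelial 4 (155 and 133 against 341), of 7 erythroid 1 (86.5 and 264 against 551) and of 10 chondrocyte 3 (179.5 and 216 against 1815). All 10 CAR markers were higher (6903 and 8111 against 590.0), as were 5 of 7 osteoblast markers (2474 and 3573 against 276). Of 8 PaS markers, 5 were lower and Pdgfra was higher in CAR cells (247 and 307 against 611). No marker was listed at 0 on any array. The summed intensity of the 8 complement genes was 4260.4 and 5327 in CAR cells against 602, most of it from Serping1 (3086 and 3634 against 346), and the part of the blood cell signal in their differences was not tested.

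Over the 3 arrays, the gene whose log2 values lay nearest to those of each complement gene, by Euclidean distance, was Rspo3 for C1s1 (0.09), Bag5 for C1ra (0.07), Gnai3 for C2 (0.10), Calu for C4b (0.14), Pdia3 for Cfb (0.14), Akr1c20 for C7 (0.06), Igfbp5 for Serping1 (0.35) and Trf for Clu (0.37). With 3 arrays in 2 groups, such nearness describes little more than a like level and a like difference.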

How the data were processed

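The deposited file holds 1 linear intensity for each probe set and array, which the authors made with Affymetrix Expression Console and RMA, per the submitters' processing notes; versions and genome build: not given in the sources used here. RNA of the sorted cells was amplified with a NuGEN kit for small inputs, per the labels' protocols. Log2 was taken with no pseudocount. Of 35556 probe sets, 21789 had 1 gene symbol in the platform annotation, 1621 had several and 12146 were unnamed here; 21698 matched the current gene table by identifier. A gene was represented by its brightest probe set, which left 19938 genes.

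CAR and PaS, the groups in the labels, were compared with limma 3.58.1 in R 4.3.3 (two-sided, Benjamini-Hochberg over all genes). The fit has 1 residual degree of freedom and 4.20 prior ones around a prior SD of 0.25, and assumes that the PaS array varies like the CAR arrays. SDs and SEs rest on the CAR arrays, whose number limits the precision. On simulated data of this design with 19938 genes, the fit called 0, 24, 45 and 50 of 50 genes changed by 1, 2, 3 and 4 log2 units, and 18 of 19738 unchanged ones. The share of changed genes there was far below the 15% of genes called in these data. The adjusted threshold depends on that share, so these counts do not give the power or the false calls here. All 8 members are named, as are other complement and inducer genes that passed, chosen partners and copies, the gene nearest to each member and 3 sort genes; C8a, C8b, C8g, C9, the soluble regulators and the rest named without a call, and the shared C1r probe set, were added after their values were seen. The members and lists were chosen with earlier results of these data known. Alternatives were another scaling, an offset, a filter, the mean of probe sets, other priors and leaving out a CAR array.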

Additional observations from a re-analysis of the deposited data

How the results depend on the processing

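No paired analysis was possible because the groups came from mice of different genotypes, and replicate numbers do not mark pairs. With 16 added to each intensity before log2, limma made 0 calls among all 19938 genes (smallest adjusted p = 0.0539, 5785 genes at an unadjusted p under 0.05). The counts of the 8 complement genes were then 0 higher and 0 lower (6 and 1 unadjusted), of the other complement genes 0 and 0 (3 and 11) and of the inducers 0 and 0 (13 and 0); the fit had 1.76 prior degrees of freedom there, against 4.20. The 25 called genes among the 8, the other complement genes and the inducers lost their call in this setting, and 0 of them in any other setting in which they were fitted; C7, Cd59b and Masp1 were not fitted where genes under the median level were dropped, which left 0 complement genes lower among the 8. In the other 6 tested settings 5 or 6 of the 8 were called higher, the sixth being C2. After quantile normalization the other complement genes gave 6 higher and 12 lower; the cause was not tested. The median difference of the 8 genes was 2.22 after quantile normalization, 1.97 with the offset and 3.10 without dim genes, and from 2.36 to 2.62 with a CAR array left out, where 1 array against 1 allows no test. Signs changed after quantile normalization for 6 genes without a call: C1ra (−0.27), Cr1l (−0.17), C4a (−0.13), Cebpb (−0.46), Rela (−0.44) and Hc (0.21). Cebpb also changed sign with CAR array 1 left out (−0.05), and Rela with CAR array 2 left out (−0.27). Over all genes, 57.1% of calls were higher in CAR cells, 64.0% with centring, 52.8% after quantile normalization, 80.2% without dim genes and 47.9% with a trend in the prior. Without detection calls, low values, such as those of C7, cannot be told from background.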
